A study of Sus scrofa with 42 samples.

Results

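Ferritin stores iron and the antioxidant enzymes remove reactive oxygen species, and transcripts of 10 genes of these kinds were followed in single blastomeres of early pig embryos. The genes were the ferritin light chain (FTL) and heavy chain (FTH1), the superoxide dismutases SOD1 and SOD2, the peroxiredoxins PRDX1, PRDX2, PRDX3 and PRDX6, thioredoxin (TXN) and the glutathione peroxidase GPX4. Of the 15351 genes in the table, 7 of them carried these names (FTL, SOD1, SOD2, PRDX2, PRDX3, PRDX6 and GPX4). The other 3 had no name in the table, and PRDX1 was found by its gene ID, FTH1 and TXN by the position and strand of the RefSeq gene. Fertilized embryos were produced in vitro (IVF) and parthenogenetic ones by activation (PA), in which electric pulses start development of the oocyte without sperm. Single cells were collected at 19 h (1-cell stage), 27 h (2-cell), 48 h (4-cell) and 72 h (8-cell), counted from the end of incubation with sperm or from the pulses. All embryos came from oocytes matured in vitro and were cultured in the same medium, and PA oocytes were also incubated with 6-dimethylaminopurine and cytochalasin B. The 42 cells came from 20 embryos, with 3 embryos in each group at the 1-, 2- and 4-cell stage and 1 embryo in each 8-cell group, so both 8-cell groups stand for 1 embryo only. Cells are named by stage, embryo and blastomere, as in 4-cell-2-3.

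Values are FPKM, fragments scaled by gene length and by the mapped reads of the cell, which allow levels to be compared between genes per length. Reads on genes recovered from the FPKM ranged from 4564618 to 15571574 per cell with a median of 10520999. Of the PA 4-cell blastomeres, 4-cell-2-1 nearly repeated PA 2-cell-2-1 (Pearson's r = 0.9989 over all genes) and 4-cell-1-4 nearly repeated PA 2-cell-1-2 (r = 0.9988), against at most 0.9307 for the rest of the 861 pairs of cells. Values of the PA 4-cell group are given for all 9 blastomeres, and for the 10 genes also without these 2 where that moved a level, an order or a call. The label of early embryos was checked with the 8 of 11 listed oocyte and early embryo markers that were in the table. Their FPKM summed to 875 in IVF 1-cell and 726 in PA 1-cell embryos, led by BTG4, and to 10.9 and 55.9 in IVF and PA 8-cell embryos, led by GDF9 and ZP2. Of these markers, ZP3, ZAR1 and FIGLA were at 0 in IVF 8-cell embryos, and the same genes and NOBOX were at 0 in PA 8-cell embryos. The 6 of 11 cumulus cell markers in the table summed to at most 14.4 in any group, reached in IVF 2-cell embryos and led there by VCAN, with TNFAIP6 and CD44 at 0. The blood cell markers PTPRC and CD74 summed to at most 0.593, and the only sperm marker in the table, AKAP4, reached at most 0.973.

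Ferritin is a hollow shell built of light and heavy chains. The heavy chain oxidizes ferrous iron, which otherwise feeds the production of hydroxyl radicals, and the light chain helps the mineral form inside the shell. Superoxide dismutases turn superoxide into hydrogen peroxide, peroxiredoxins reduce that peroxide with electrons from thioredoxin, and GPX4 reduces lipid peroxides with glutathione. An early embryo lives on maternal transcripts until its own genome is activated, which in the pig happens mainly around the 4-cell stage. Translation of ferritin transcripts is held back when iron is low by iron regulatory proteins, which bind a hairpin near the 5′ end with a loop that begins CAGTG, and the same proteins stabilize the transcript of the transferrin receptor through hairpins at its 3′ end. This hairpin is shown for both ferritin genes because it is the sequence feature that they shared and the other 8 genes lacked. It was searched for as CAGTGN between 2 stretches of 5 bases that pair with each other (G-T pairs allowed), on the gene's strand, in the first 250 bases of each protein-coding RefSeq gene on Sscrofa11.1. It was present in 62 of 19560 genes (0.317%). The capitals mark the loop.
FTL, chr6:54231195-54231222, plus strand: tcttgcttcaaCAGTGTttggacggaac
FTH1, chr2:9535176-9535203, plus strand: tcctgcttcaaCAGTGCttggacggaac
Over these 28 bases the elements were identical at 26 and differed by T3C and T17C, with the FTL base first and positions counted from 1 at the 5′ end. A match of the sequence does not show that the element is used in these cells.

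The promoters were searched for TGACNNNGC, the core of the antioxidant response element bound by NRF2, a transcription factor that induces many antioxidant genes. The windows ran from 250 bases before to 50 after the RefSeq gene start, both strands were read, and 12.35% of the 19560 promoters held a match. The motif was found before TXN and GPX4 and in none of the windows of the other 8 genes. Both matches lay on the strand opposite to the gene, at -22 from the TXN start and -190 from the GPX4 start, and are shown 5′ to 3′ on the strand of the match with the motif in capitals.
TXN, match at chr1:251278014-251278022: tcggcgTGACACAGCagttta
GPX4, match at chr2:77324113-77324121: tgtaggTGACTGCGCatgctc

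FTL (ENSSSCG00000003153, chr6:54231121-54232753) was the most abundant of the 10 transcripts by its median, and was above 1 FPKM in 42 of 42 cells, with a median of 402 FPKM. Its mean level ranked between 18 and 61 among all genes in each of the 8 groups. In 1-cell embryos it was 237, 227 and 258 FPKM for IVF and 386, 235 and 509 FPKM for PA. In 2-cell blastomeres it ranged from 180 to 546 FPKM with a median of 413 for IVF and from 232 to 545 with a median of 432 for PA. The ranges of IVF and PA overlapped at both stages.

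In 4-cell blastomeres FTL spread out, from 68.9 to 2161 FPKM with a median of 726 for IVF and from 11.2 to 871 FPKM with a median of 230 for PA. The embryo means were 1410, 713 and 498 FPKM for IVF and 328, 237 and 352 FPKM for PA, so every IVF embryo lay above every PA embryo. Without the near-repeats the PA embryo means were 230.2, 239 and 352 FPKM and still lay below those of IVF. In the 8-cell embryos the 3 blastomeres held 13.8, 131 and 705 FPKM for IVF and 3264.5, 50.9 and 763 FPKM for PA. A single blastomere, PA 8-cell-1-1, thus carried the highest FTL level of all cells. By group mean the order was PA 8-cell (1359 FPKM, 1 embryo), IVF 4-cell (874 ± 477, SD, n = 3), PA 2-cell (417 ± 56.4), IVF 2-cell (394 ± 103), PA 1-cell (377 ± 137), PA 4-cell (305 ± 60.7), IVF 8-cell (283, 1 embryo) and IVF 1-cell (241 ± 15.3). From IVF 4-cell to PA 4-cell, neighbours in this order differed by less than the larger of their SDs. Without the near-repeats the PA 4-cell mean was 274 ± 67.6 FPKM, which puts it below IVF 8-cell.

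FTH1 (ENSSSCG00000014540, chr2:9535046-9538043) was lower than FTL in 39 of 42 cells, with a median of 15.4 FPKM, and its level varied more widely between sister blastomeres at the 2- and 4-cell stages, by the median over embryos. It was 12.02, 12.1 and 15.4 FPKM in IVF 1-cell and 28.1, 22.4 and 14.6 FPKM in PA 1-cell embryos. It ranged from 5.46 to 65.5 FPKM in IVF 2-cell and from 0.0979 to 100.1 FPKM in PA 2-cell blastomeres, with medians of 29.7 and 21.5. In 4-cell blastomeres it ranged from 0.0643 to 76.0 FPKM with a median of 15.3 for IVF and from 0.155 to 154 FPKM with a median of 0.373 for PA (0.281 without the near-repeats). The 8-cell blastomeres held 0.467, 142 and 179 FPKM for IVF and 40.1, 448 and 117 FPKM for PA. The cells in which FTH1 was above FTL were IVF 8-cell-1-2, PA 4-cell-2-3 and PA 8-cell-1-2.

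**Figure D1:**
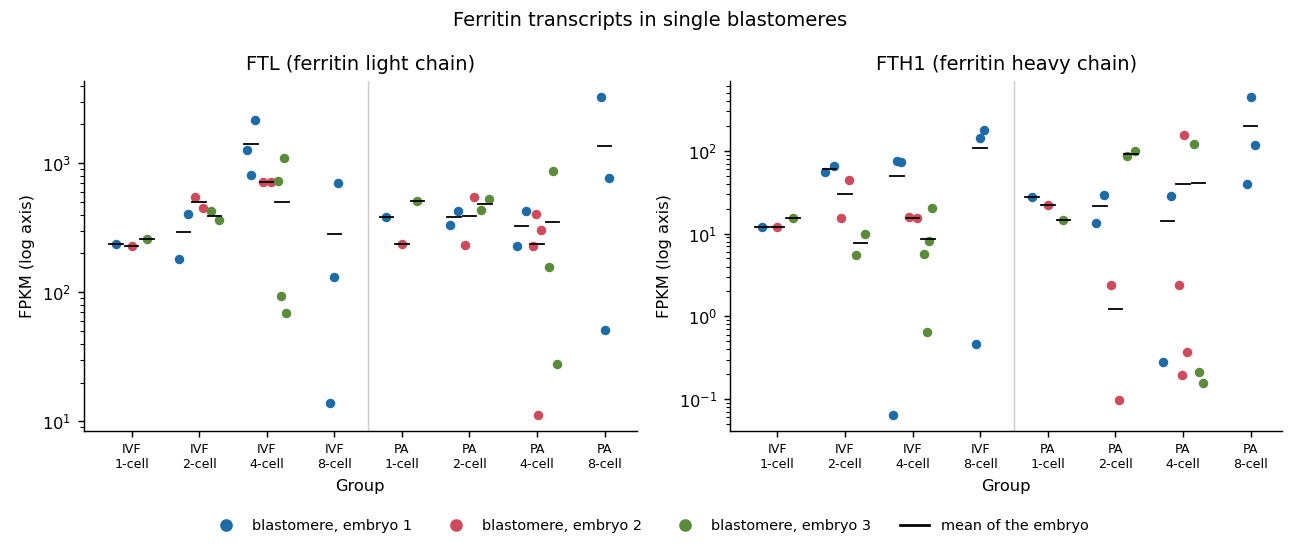
FPKM of FTL (left) and FTH1 (right) on log axes in each blastomere, by group; points are blastomeres, colours are embryos within a group and black bars are embryo means. FTL lies within a narrow band in 1- and 2-cell embryos and spreads from 11.2 to 2161 FPKM at the 4-cell stage, and FTH1 spans a wider range among 4-cell blastomeres of 1 embryo.

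By the median over embryos, sister blastomeres differed far more in ferritin at the 4-cell than at the 2-cell stage. The range of log2(FPKM + 1) of FTL among the blastomeres of an embryo had a median of 0.33 in the 6 2-cell embryos and of 2.70 in the 6 4-cell embryos, and was 5.57 and 5.98 in the 8-cell embryos. For FTH1 the medians were 0.92 and 5.35, and the 8-cell embryos had 6.94 (IVF) and 3.45 (PA), so FTH1 was not the more variable chain in the PA 8-cell embryo. For the 122 tested genes whose mean log2(FPKM + 1) over cells was at least that of 50 FPKM, the same medians were 0.37 and 2.15, so the widening was shared by other abundant transcripts. At the 8-cell stage the median of these genes was 2.58. The sampled blastomeres per 4-cell embryo numbered 2 to 4, which by itself widens a range. IVF 4-cell embryo 2 went the other way, with ranges of 0.012 for FTL and 0.054 for FTH1. Both lay below the lowest ranges of the 2-cell embryos, 0.234 and 0.221. Without the near-repeats, 5 4-cell embryos had more than 1 blastomere and the medians were 3.98 for FTL, 6.18 for FTH1 and 2.10 for the 122 genes. Between the 2 ferritin chains r of log2(FPKM + 1) was 0.04 across the 42 cells and 0.314 across the 20 embryos, given as a description since the cells share embryos, and the ratio of FTL to FTH1 ran from 0.0728 to 19590, the upper end set by a single FTH1 read in IVF 4-cell-1-1.

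FTL shares its position with the 3′ part of GYS1, muscle glycogen synthase, on the opposite strand (chr6:54231329-54250317). The FPKM of FTL and GYS1 kept a nearly constant ratio, from 5.93 to 9.39 with a median of 8.31 over 42 cells, and r of their log2 values was 0.997. The reads recovered for GYS1 were 0.874 to 1.38 times those for FTL, with a median of 0.987. The strand setting of the counting is not given in the sources used here, and reads of FTL and GYS1 cannot be told apart in these values, so each FTL level holds for both genes together. FTH1 overlapped no other gene of the table.

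**Figure D2:**
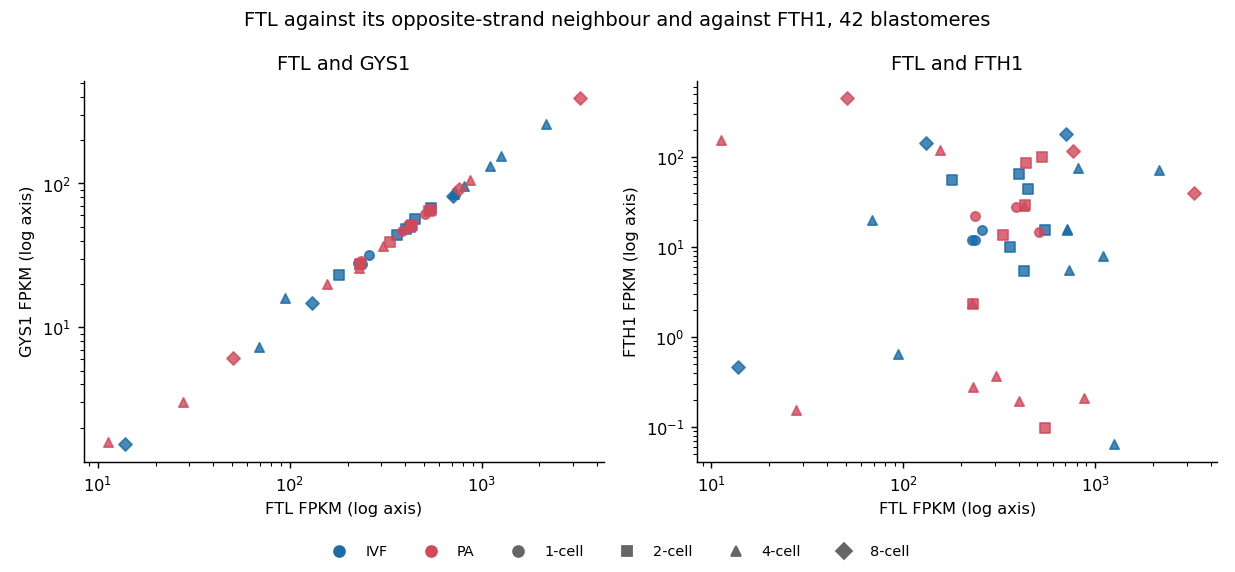
FPKM of GYS1 (left) and FTH1 (right) against FPKM of FTL on log axes in 42 blastomeres; blue is IVF, red is PA and marker shapes are stages. GYS1 lies on a line with FTL at a median ratio of 8.31, and FTH1 shows no such line (r = 0.04).

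The antioxidant enzymes had far lower medians than FTL, and none reached 1 FPKM in all 42 cells. In PA 4-cell-3-4 PRDX6 was above FTL (64.7 against 27.8 FPKM). In a cell, between 1 and 7 of the 10 transcripts reached 1 FPKM. SOD1, the cytosolic dismutase, never reached 1 FPKM, with a highest value of 0.544 FPKM (11 reads) in IVF 1-cell-1 and 0 reads in 30 of 42 cells. GPX4 had 0 reads in 39 of 42 cells and reached 1 FPKM in IVF 4-cell-2-2 alone, at 5.22 FPKM (198 reads). SOD1 overlaps SCAF4 (at most 33.9 FPKM) and GPX4 overlaps SBNO2 (at most 1.06 FPKM) on the other strand. SOD1 and GPX4 failed the filter on low values, so 8 of the 10 genes were tested. In a fit with no filter (14692 genes) neither was called in any comparison, and for GPX4 from the IVF 2- to the 4-cell stage the log2 fold change was 0.62 (95% interval -0.12 to 1.36, limma adjusted p = 0.417).

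SOD2, the mitochondrial dismutase, was 6.44, 2.41 and 1.201 FPKM in IVF 1-cell and 4.21, 0.243 and 4.46 FPKM in PA 1-cell embryos. It ranged up to 8.24 FPKM in IVF 2-cell and up to 11.8 FPKM in PA 2-cell blastomeres. Among 4-cell blastomeres the medians were 0.0138 FPKM for IVF and 0.0144 for PA, with highest values of 5.14 and 12.4. In PA 4-cell blastomeres all of the SOD2 signal of at least 1 FPKM lay in the 2 near-repeats of 2-cell blastomeres, without which the highest value was 0.0240 FPKM. In the 8-cell embryos no blastomere exceeded 0.0997 FPKM. PRDX2, a cytosolic peroxiredoxin, had a similar course, with 0.919 ± 0.383 FPKM (SD, n = 3) in IVF 1-cell, 2.01 ± 0.791 in IVF 2-cell, 1.88 ± 1.03 in PA 1-cell and 1.71 ± 0.637 in PA 2-cell embryos. Its highest 4-cell values were 7.63 FPKM for IVF and 6.04 for PA, and at the 8-cell stage it did not exceed 0.00816 FPKM in any of 6 blastomeres. The RefSeq gene makes up 44.2% of the region counted for PRDX2, which overlaps RNASEH2A (at most 29.8 FPKM) on the other strand. Neither SOD2 nor PRDX2 passed the test in any step, and for SOD2 from the IVF 2- to the 4-cell stage the log2 fold change was -1.12 (95% interval -3.11 to 0.87).

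PRDX6, which uses a single cysteine and glutathione, differed most between the early stages and the 4-cell stage by its IVF estimate. It stayed at or below 0.429 FPKM in all 1- and 2-cell embryos and blastomeres. In IVF 4-cell embryos the means were 0.825, 101 and 16.0 FPKM, all above the highest IVF 2-cell embryo at 0.0287. The signal came from both blastomeres of embryo 2 (104 and 98.5 FPKM), from 4-cell-3-2 (63.5 FPKM) and from 4-cell-1-4 (2.44 FPKM), and the other 5 blastomeres had at most 0.372 FPKM. In PA 4-cell embryos the means were 0.0132, 3.62 and 21.6 FPKM, carried by 4-cell-2-2 (14.5 FPKM) and 4-cell-3-4 (64.7 FPKM). The 8-cell blastomeres held 3.85, 0.0491 and 0.669 FPKM for IVF and 2.71, 3.60 and 33.3 FPKM for PA.

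PRDX1, the major cytosolic peroxiredoxin, and TXN, the small protein that recharges peroxiredoxins, were highest in the same blastomere, IVF 4-cell-2-3, at 98.3 and 92.7 FPKM. Its sister 4-cell-2-2 had 11.07 FPKM of PRDX1 and 13.8 of TXN, and the sole other IVF 4-cell blastomere with PRDX1 above 1 FPKM was 4-cell-3-3 with 18.7 FPKM. In PA 4-cell blastomeres PRDX1 and TXN reached 1 FPKM only in 4-cell-1-4, one of the near-repeats, at 1.59 and 6.07 FPKM, and without both near-repeats the highest values were 0.0140 and 0.111 FPKM. At the 1-cell stage PRDX1 was 2.10 ± 1.13 FPKM (SD, n = 3) for IVF and 2.00 ± 2.11 for PA, and TXN was 6.45 ± 4.14 for IVF and 3.73 ± 2.65 for PA. At the 8-cell stage PRDX1 was at most 0.0417 FPKM in any blastomere, while TXN was 0.133, 3.92 and 2.42 FPKM for IVF and 31.2, 0 and 0 FPKM for PA. The RefSeq gene makes up 34.0% of the region counted for PRDX1, which overlaps AKR1A1 (at most 6.06 FPKM) and MMACHC (at most 3.93 FPKM) on the other strand. TXN overlaps an unnamed gene on the other strand that reached 29.3 FPKM.

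PRDX3, the mitochondrial peroxiredoxin, was 4.30, 11.4 and 7.75 FPKM in IVF 1-cell and 0.0307, 2.96 and 10.1 FPKM in PA 1-cell embryos. From the 2-cell stage on it was either low or high in a cell. It reached 24.96 FPKM in IVF 2-cell-1-1 and was at most 0.106 in the other 5 IVF 2-cell blastomeres, and it was 40.7 and 27.7 FPKM in PA 2-cell-1-1 and 2-cell-2-2 and at most 0.159 in the other 4. Among 4-cell blastomeres the highest value was 8.56 FPKM for IVF and 0.107 for PA. The 8-cell blastomeres held 0.0621, 98.3 and 0.502 FPKM for IVF and 8.55, 0.0327 and 0 FPKM for PA.

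**Figure D3:**
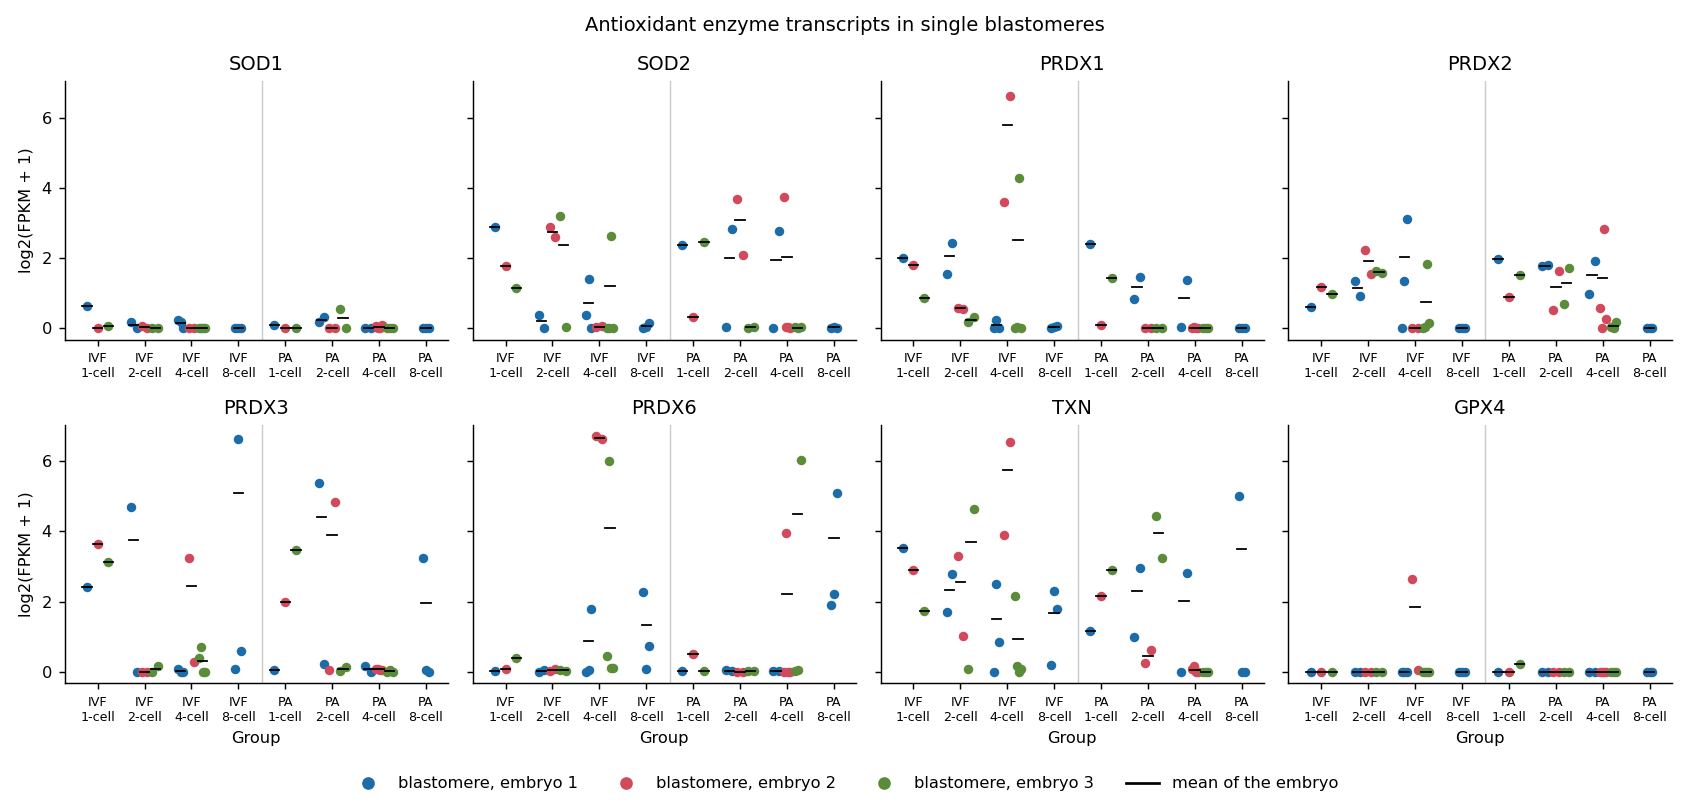
log2(FPKM + 1) of the 8 antioxidant enzyme transcripts in each blastomere, by group; points are blastomeres, colours are embryos within a group and black bars are embryo means on the same scale. SOD1 never reaches 1 FPKM, PRDX6 is near 0 until the 4-cell stage, and single blastomeres reach 98.3 FPKM of PRDX1 and 92.7 of TXN at the 4-cell stage and 98.3 of PRDX3 at the 8-cell stage.

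Each stage was compared with the one before it on log2 of the embryo mean FPKM plus 1, with limma across 8116 genes. Calls needed a fold change of 2 or more and a Benjamini-Hochberg adjusted p under 0.05. From the 1- to the 2-cell stage none of the 8 tested members was called in IVF, where 0% of all genes were called, or in PA, where 0.0986% were called. None had an unadjusted p below 0.05 in either step. From the 2- to the 4-cell stage none was called in IVF (1.11% of all genes) or in PA (0.394%), with 2 members in IVF and 1 in PA at an unadjusted p below 0.05. Without the near-repeats 601 of the 8116 genes were called in PA in place of 32, and without IVF 4-cell embryo 1 there were 729 in IVF in place of 90. The largest estimate was that of PRDX6 in IVF, with a log2 fold change of 3.84 (SE 1.12, limma adjusted p = 0.0877), higher in 3 of 3 4-cell embryos. PRDX6 reached 1 FPKM in no 1- or 2-cell embryo or blastomere, so it passed the filter only through the later stages. Its test in the 2- to 4-cell step is therefore no independent support for a rise. Without IVF 4-cell embryo 1, PRDX6 (5.35, adjusted p = 0.00315) and PRDX1 (3.20, adjusted p = 0.0440) were called in this step. PRDX6 was called also without PA 4-cell embryo 3 (adjusted p = 0.0476). For PRDX6 in PA the log2 fold change was 2.23 (95% interval -0.12 to 4.58), and PRDX3 in PA had the unadjusted p below 0.05, with -2.75 (95% interval -5.24 to -0.25, adjusted p = 0.397). In IVF the member beside PRDX6 was FTL, with 1.05 (95% interval 0.15 to 1.94, limma adjusted p = 0.213).

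Each 8-cell group is 1 embryo, so the SE of any step to it comes from the other groups and the lone embryo is assumed to vary like them. A call then says that this embryo differed, not that 8-cell embryos do. FTL was called higher in the PA 8-cell embryo than at the 4-cell stage, with a log2 fold change of 2.17 (SE 0.61, limma adjusted p = 0.0266), where 9.99% of all genes were called, and no other member was called. With only the 4- and 8-cell PA groups in the fit it was not called (adjusted p = 0.180). The call rests on PA 8-cell-1-1. Without that blastomere the log2 fold change was 0.43 (adjusted p = 0.846), and with log2 values averaged over blastomeres it was 1.42 (adjusted p = 0.498). Without the near-repeats it was 2.34 (adjusted p = 0.0312). In IVF no member was called, against 6.97% of all genes, and 2 members had an unadjusted p below 0.05. They were FTL, with a log2 fold change of -1.48 (95% interval -2.75 to -0.21, adjusted p = 0.171), and PRDX3, with 4.17 (95% interval 0.64 to 7.70, adjusted p = 0.165). Without IVF 8-cell-1-2 the PRDX3 value was -0.56 (adjusted p = 0.954). Without IVF 8-cell-1-3 FTL was called in IVF, at -3.44 (adjusted p = 0.00102), where 8.75% of all genes were called. The median log2 fold change of the 8 members was 1.74 in PA and -0.99 in IVF, beside -0.15 and -0.38 over all genes tested. Without PA 8-cell-1-1 the median of the members in PA was -0.16, beside -0.22 over all genes. The share of FPKM from mitochondrial transcripts also moved with stage, with group medians of 17.1, 29.0, 43.7 and 52.3% for IVF and 13.2, 16.6, 25.2 and 45.6% for PA, and its part in the FTL result was not tested. With nuclear genes rescaled to the same total in every cell the FTL value in PA was 1.64 (adjusted p = 0.119).

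**Figure D4:**
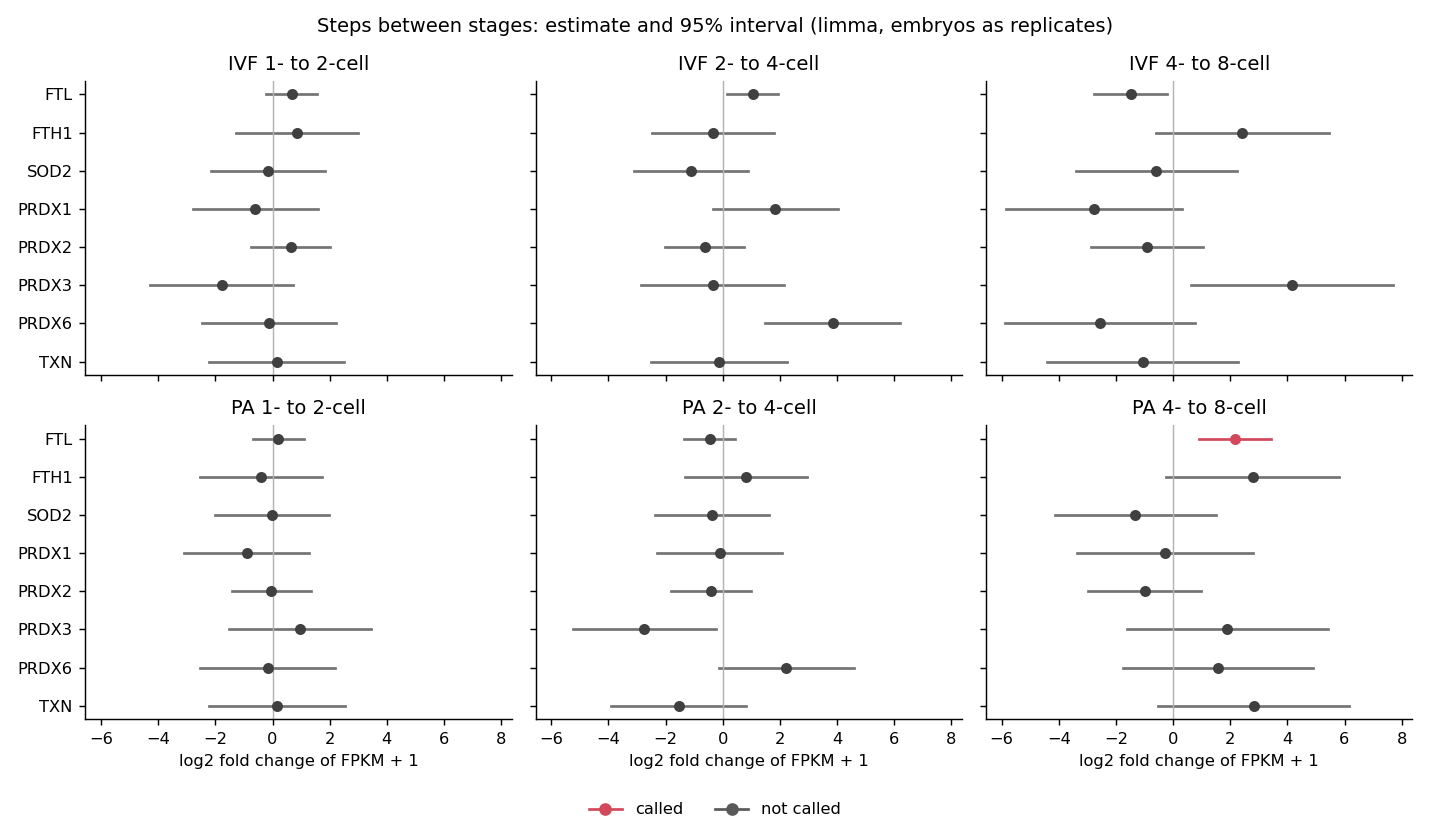
log2 fold changes of the 8 tested members for each step between stages within IVF (top) and PA (bottom); points are limma estimates on log2(FPKM + 1) of embryos, lines are 95% intervals and red marks a called change. FTL from the PA 4- to the 8-cell stage is the only called change, and it rests on 1 blastomere.

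Between IVF and PA embryos of the same stage no member was called. Over all genes 0.0493% were called at the 1-cell, 0% at the 2-cell and 0.554% at the 4-cell stage. The 45 genes at the 4-cell stage became 330 without the near-repeats and 432 without IVF 4-cell embryo 1. No member had an unadjusted p below 0.05 at the 1- or 2-cell stage, and 2 had one at the 4-cell stage. For FTL the log2 difference of IVF over PA at the 4-cell stage was 1.40 (95% interval 0.50 to 2.30, adjusted p = 0.131), and for PRDX1 it was 2.51 (95% interval 0.32 to 4.69, adjusted p = 0.273). Without the near-repeats they were 1.56 (adjusted p = 0.0693) and 2.78 (adjusted p = 0.133). TXN then also had an unadjusted p below 0.05, with 2.71 (95% interval 0.41 to 5.01, limma adjusted p = 0.170). Without IVF 4-cell embryo 1, PRDX1 was called, at 3.87 (adjusted p = 0.0244). The 8-cell groups hold 1 embryo each and were compared by the values above without a test.

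Whether a step differed between IVF and PA was tested as an interaction. No member was called for the 1- to 2-cell and the 2- to 4-cell step, where 0% of all genes were called in both, with 0 and 1 members at an unadjusted p below 0.05. For the 4- to 8-cell step 2.86% of all genes were called, and FTL was the only member, with an IVF step minus PA step of -3.66 on the log2 scale (SE 0.86, limma adjusted p = 0.0263). With only these 4 groups in the fit it was not called (adjusted p = 0.358). Without PA 8-cell-1-1 the estimate was -1.92 (adjusted p = 0.288), and without IVF 8-cell-1-1 it was -3.10 (adjusted p = 0.0501). The IVF and PA steps share no embryos, but each rests on a single 8-cell embryo, so embryo and method cannot be told apart in this difference.

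Over the 20 embryos the genes whose log2(FPKM + 1) followed FTL most closely included GYS1 (Pearson's r = 0.999), whose reads cannot be told apart from those of FTL, and HMG20B (0.798). Among the other members r with FTL ran from -0.265 for PRDX3 to 0.387 for PRDX6.

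Another 88 genes of iron handling, the peroxiredoxin, thioredoxin and glutathione systems, the NRF2 pathway and selenoprotein synthesis were looked at beside these 10, of which 78 were in the table and 48 were tested. None was called before the 4- to 8-cell step or between IVF and PA at the same stage. Without the near-repeats, 6 were called from the PA 2- to the 4-cell stage (7.41% of all genes) and 1 in IVF (1.21%). Between IVF and PA at the 4-cell stage 2 were then called (4.07% of all genes). From the 4-cell stage to the single 8-cell embryo 4 were called higher and 1 lower in IVF (10.4% of the 48, against 6.97% of all genes), and 5 higher and 0 lower in PA (10.4%, against 9.99%). In fits of the 4- and 8-cell groups of 1 method alone, BLVRB in PA was the 1 of these calls that was kept, where 0 of all 8116 genes were called in IVF and 97 in PA. None of 8 tested genes of the thioredoxin and glutaredoxin system and none of 8 of the NRF2 pathway was called in either. BLVRB passed the filter on low values only through the PA 8-cell blastomeres, so its kept call is no independent support.

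TFRC, the transferrin receptor that brings iron into the cell, was called higher in the 8-cell embryo of both methods. It was 17.2 ± 7.03 FPKM (SD, n = 3) in IVF 4-cell and 8.95 ± 13.2 in PA 4-cell embryos. The 8-cell blastomeres held 1870.0, 119.5 and 118.9 FPKM for IVF and 63.9, 127 and 324 FPKM for PA, all above the highest 4-cell blastomere at 55.8 FPKM. The log2 fold changes were 5.34 (SE 1.35, limma adjusted p = 0.0174) in IVF and 5.23 (SE 1.35, adjusted p = 0.0160) in PA. Without IVF 8-cell-1-1 the IVF value was 2.79 (adjusted p = 0.260). Both calls were lost with a pseudocount of 0.1 (adjusted p = 0.155 in IVF and 0.0712 in PA) and with only the groups compared (0.164 and 0.505). In the same list of 10 tested iron genes that were not members, STEAP3, an endosomal ferric reductase, was called higher in IVF by 3.94 (adjusted p = 0.000331) and BLVRB, which reduces biliverdin, in PA by 1.87 (adjusted p = 0.00203). STEAP3 was at 0, 0 and 43.3 FPKM in the IVF 8-cell blastomeres, so its call rests on 8-cell-1-3, without which the log2 fold change was -0.01. BLVRB was 5.46, 1.26 and 1.34 FPKM in the PA 8-cell blastomeres and at most 0.0177 in any PA 4-cell embryo. Its call was absent with a pseudocount of 5 and with the filter of 5 FPKM. BLVRB reached 1 FPKM only in the PA 8-cell blastomeres and in IVF 4-cell-2-3 (1.57 FPKM), so the PA 8-cell group alone brought it past the filter. Its calls, also that in the interaction below, thus concern a gene selected on the group where it was high.

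GCLM, the modifier subunit of the enzyme that makes the first step of glutathione synthesis, was the 1 of 13 tested genes of the glutathione system that was called, in the 8-cell embryo of both methods. It was 0.380 ± 0.633 FPKM in IVF 4-cell and 0.0144 ± 0.0250 in PA 4-cell embryos. The 8-cell blastomeres held 43.2, 0.0148 and 51.8 FPKM for IVF and 0, 0.0103 and 58.0 FPKM for PA, so it was high in 3 of the 6 and near 0 in the rest. The log2 fold changes were 4.66 (adjusted p = 0.00498) and 4.32 (adjusted p = 0.00713), and the PA value was -0.01 without 8-cell-1-4. With only the groups compared neither was called (adjusted p = 0.404 and 0.0616). The PA call was lost also with the mean of log2 values.

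PRDX4, the peroxiredoxin of the endoplasmic reticulum, was called higher in PA by 5.75 (adjusted p = 0.0177), with 203.9, 54.0 and 0 FPKM in the 8-cell blastomeres. Without 8-cell-1-1 the value was 4.12 (adjusted p = 0.0915), and the call was lost also with a pseudocount of 0.1. SESN1, a sestrin linked to the control of peroxiredoxins and growth, was called lower in IVF with a log2 fold change of -4.47 (adjusted p = 0.00537), from 33.3 ± 28.9 FPKM at the 4-cell stage to 0.477, 0.133 and 0.0640 FPKM. The SESN1 call was lost without the near-repeats (adjusted p = 0.0810), with a pseudocount of 5 (0.0761), with median-ratio scaling (0.105), with the mean of log2 values (0.0854) and with only the groups compared (0.417). In PA, SESN1 was 60.5 ± 24.4 FPKM at the 4-cell stage and 0.251, 0.278 and 29.5 FPKM in the 8-cell blastomeres. In IVF, PRDX4 reached 85.6 FPKM in 4-cell-2-3 and 18.3 FPKM in 8-cell-1-2. Neither SESN1 nor PRDX4 was called in the interaction. In selenoprotein synthesis 1 of 5 tested genes was called higher in each method. SEPHS1, of the selenophosphate synthetase family, was called in IVF at 2.62 (adjusted p = 0.00515) and PSTK, which phosphorylates the seryl-tRNA that becomes selenocysteine tRNA, in PA at 4.91 (adjusted p = 0.000243). Each was carried by 1 blastomere, SEPHS1 by IVF 8-cell-1-3 with 35.8 FPKM and PSTK by PA 8-cell-1-2 with 99.0 FPKM, and without that blastomere the values were -1.04 and -0.16. The SEPHS1 call was lost also with a pseudocount of 0.1 and with the mean of log2 values. SEPHS1 passed the filter on low values only with IVF 8-cell-1-3 counted. The interaction called STEAP3 (3.98, adjusted p = 0.0172), BLVRB (-2.02, adjusted p = 0.0361) and PSTK (-5.27, adjusted p = 0.00997), 6.25% of the 48 genes against 2.86% of all. Each of these calls was lost without 1 blastomere. It was IVF 8-cell-1-3 for STEAP3, PA 8-cell-1-1 for BLVRB and PA 8-cell-1-2 for PSTK. With only the groups compared BLVRB and PSTK were lost. BLVRB was lost also with a pseudocount of 5, with nuclear genes rescaled and without PA 4-cell embryo 1.

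**Figure D5:**
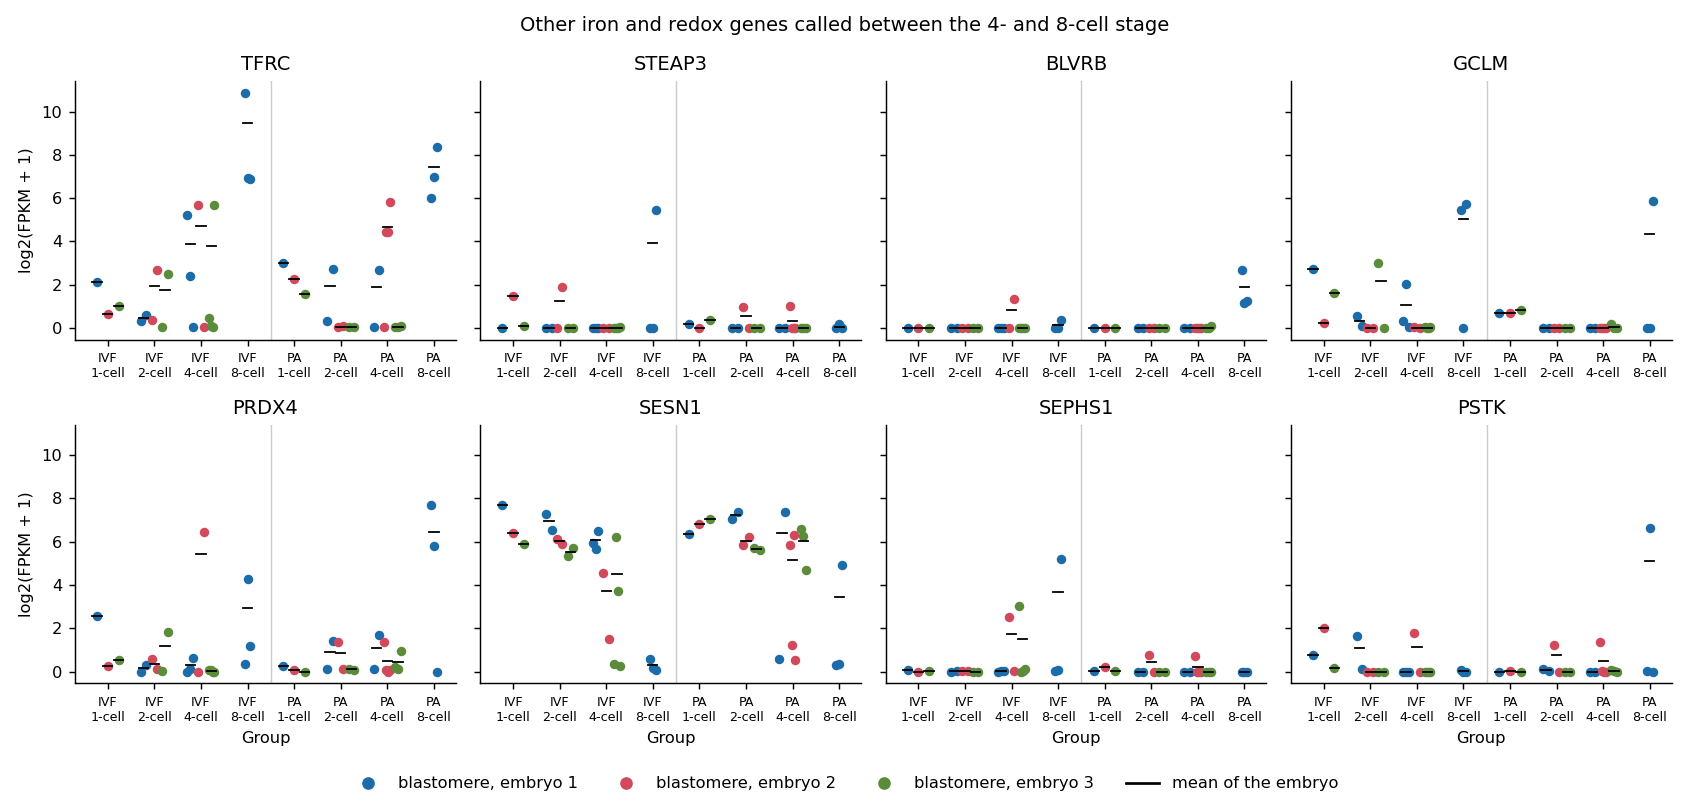
log2(FPKM + 1) of the 8 other iron and redox genes called between the 4- and 8-cell stage, in each blastomere by group; points are blastomeres, colours are embryos within a group and black bars are embryo means on the same scale. TFRC is high in all 6 8-cell blastomeres, from 63.9 to 1870.0 FPKM, and SEPHS1, STEAP3 and PSTK are high in 1 each.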

How the data were processed

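By the study's methods, single cells were lysed, cDNA of transcripts both with and lacking polyA tails was amplified and read from both ends, while the extraction protocol in the labels describes Trizol and total RNA libraries. The authors used Hisat2 (mapping to Sscrofa11.1), StringTie (assembly) and HTSeq (counting) and deposited FPKM, 1 column per cell; versions, annotation release and strand are not given in the sources used here. Whole reads were recovered by dividing FPKM by its smallest step, within 0.01 reads up to 20000, for 14677 of 14692 expressed genes (99.9%). They were used for depth, for the read counts given and for comparing GYS1 with FTL, and not in the fits. Without molecular identifiers reads are not molecules, so the spread between embryos set the precision.

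Embryo means were taken over blastomeres, 1 was added and log2 taken, so fold changes of low genes are understated. Genes reaching 1 FPKM in 3 or more cells (8116) were fitted with limma 3.58.1 (R 4.3.3) with a mean-variance trend over all 8 groups, and the lone 8-cell embryos are assumed to vary like the other groups. The authors' own test on counts was not repeated. Nothing says whether embryos came from separate collections. Named genes were the 10 members, pathway genes called in a comparison (at most 5 each) and the 3 genes most like each called member, of which 1 is not reported here. Members and lists were chosen with earlier results of these data known. Tables and figures were made in Python 3.11.15 with pandas 2.3.3 and matplotlib 3.10.9. The fit was tested on simulated data. Alternatives were pseudocounts of 0.1 and 5, other filters, 2 scalings, the mean of log2 values, fewer groups, a replicate block, and leaving out embryos or cells. Sequences are from RefSeq on Sscrofa11.1.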

Additional observations from a re-analysis of the deposited data

Results flagged for a closer look

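In 6 of 40 groups of 6 or 9 cells (10 members in 4 groups) a lone cell stood apart from the rest on the log2(FPKM + 1) scale, where chance gives about 1 in 20 for evenly spread values. Over all 14692 genes above 0 the share was 35.02% of the same groups, against 15.0% for the members, so lone cells were not more common here. They were SOD1 in IVF 2-cell-1-1 (0.127 FPKM, 2 reads), PRDX3 in IVF 2-cell-1-1 (24.96 FPKM) and in IVF 4-cell-2-2 (8.56 FPKM), GPX4 in IVF 4-cell-2-2 (5.22 FPKM), and PRDX1 (1.59 FPKM) and TXN (6.07 FPKM) in PA 4-cell-1-4. The last cell is one of the near-repeats of PA 2-cell blastomeres. Cells of 1 embryo are not independent.

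The 4- to 8-cell step of FTL was called different between IVF and PA by the interaction, at -3.66 on the log2 scale, with 1 8-cell embryo in each method. The value was -1.92 without PA 8-cell-1-1 and was not called.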

How the results depend on the processing

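The FTL call from the PA 4- to the 8-cell stage (2.17) and in the interaction (-3.66) was kept with pseudocounts of 0.1 and 5, both filters, without the near-repeats and without each 4-cell embryo (2.00 to 2.28 and -3.99 to -3.24). It was lost with nuclear genes rescaled (1.64 and -3.29), with median-ratio scaling (2.77 and -2.42), with the mean of log2 values (1.42 and -3.92) and with only the groups compared (2.17 and -3.66). With the embryo number as a replicate block it was 2.09 (limma adjusted p = 0.0497) and -3.66 (adjusted p = 0.0359), and BLVRB was lost from the interaction (adjusted p = 0.0521). The numbers do not pair the embryos, with correlations of deviations from -0.02 to 0.127. The cause of these changes was not tested.

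The count of members called moved as follows. From the IVF 2- to the 4-cell stage (0) it was 0 to 2 without 1 embryo. From the IVF 4- to the 8-cell stage (0) it was 1 with median-ratio scaling (PRDX3) and 1 without IVF 8-cell-1-3. From the PA 2- to the 4-cell stage (0) it was 1 with median-ratio scaling (FTL). From the PA 4- to the 8-cell stage (1) it was 0 with nuclear genes rescaled, 3 with median-ratio scaling (FTH1, PRDX3 and TXN), 0 with the mean of log2 values and 0 without PA 8-cell-1-1, and with only the groups compared the 1 was PRDX3. Between IVF and PA at the 4-cell stage (0) it was 0 to 1 without 1 embryo. In the 4- to 8-cell interaction (1) it was 0 with nuclear genes rescaled, median-ratio scaling, the mean of log2 values or only the groups compared, and 0 without IVF 8-cell-1-1 or PA 8-cell-1-1. The share of all genes called moved with these settings too. For the PA 4- to 8-cell step it was 9.04% with nuclear genes rescaled, 5.63% with the mean of log2 values and 10.3% without PA 8-cell-1-1. With median-ratio scaling it was 6% (PA 2- to 4-cell), 13.5% (IVF 4- to 8-cell), 18.2% (PA 4- to 8-cell) and 11.5% (the 4- to 8-cell interaction), and with only the groups compared it was 0% (IVF 4- to 8-cell), 1.2% (PA 4- to 8-cell) and 1.5% (the interaction). Leaving out single 8-cell blastomeres was chosen after seeing the data. Median-ratio scaling moved the median log2 fold change of all genes from -0.17 to 0.15 (PA 2- to 4-cell) and from -0.38 to -0.06 (IVF 4- to 8-cell).

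The count of other pathway genes called was 0 from the IVF 2- to the 4-cell stage, and 1 with the filter of 5 FPKM, 4 with the mean of log2 values, 1 without the near-repeats and 0 to 4 without 1 embryo. In these fits, in this order, 2.8%, 6.55%, 1.21% and 0.296 to 8.98% of all genes were called. From the IVF 4- to the 8-cell stage (5) it was 3 with the filter of 5 FPKM, 8 with median-ratio scaling, 0 with only the groups compared and 5 to 10 without 1 embryo. The shares of all genes called were 7.36%, 13.5%, 0% and 7.96 to 10.9%. From the PA 2- to the 4-cell stage (0) it was 1 with no filter, 2 with median-ratio scaling, 4 with the mean of log2 values and 6 without the near-repeats. Over all genes the shares were 0.191%, 6%, 2.65% and 7.41%. From the PA 4- to the 8-cell stage (5) it was 3 with a pseudocount of 0.1, 8 with no filter, 3 with the filter of 5 FPKM, 9 with median-ratio scaling and 1 with only the groups compared. Here the shares of all genes were 9.28%, 6%, 11.8%, 18.2% and 1.2%. Between IVF and PA at the 4-cell stage (0) it was 1 with a pseudocount of 5, the filter of 5 FPKM or median-ratio scaling, 2 without the near-repeats and 0 to 3 without 1 embryo. The shares over all genes were 0.481%, 1.15%, 4.53%, 4.07% and 0.136 to 5.32%. In the interaction (3) it was 0 with a pseudocount of 0.1, the filter of 5 FPKM or the mean of log2 values, 8 with no filter and 7 with median-ratio scaling. There 1.8%, 1.55%, 0.616%, 4.91% and 11.5% of all genes were called. Without IVF 8-cell-1-3 the IVF values of SEPHS1 (-1.04) and STEAP3 (-0.00926) turned in sign, as did GCLM (-0.0129) without PA 8-cell-1-4 and PSTK (-0.161) without PA 8-cell-1-2. Of the values of named genes under alternatives, 205 kept their call, 48 lost it and 4 turned in sign. SOD1 and GPX4 were fitted with no filter alone and were not called.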
